A study of Mus musculus with 8 samples.

Results

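The Trim genes encode the numbered tripartite motif (TRIM) proteins, and 45 of them are described here in mouse bone marrow-derived macrophages (BMDMs), cells grown from bone marrow into macrophages. Members were the protein-coding genes whose symbol is Trim followed by a digit and that held at least 10 reads over 8 RNA sequencing libraries. The deposited table lists 68 genes with such symbols, whatever their reads, among 22046 protein-coding genes and 54532 genes in all. Of the 23 left out, 15 had no read and 8 had 1 to 9 reads. Trim9 with 10 reads, Trim66 with 20 and Trim17 with 30 lay just inside the limit, and Trim43c and Trim15 with 9 reads each and Trim43a with 5 lay just outside it. The rule for members uses no difference between groups, although it was set with earlier results of these data known.

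The design allows the question of how earlier IL-4 alters the later response to LPS, and the title speaks of a form of trained immunity. Control cells received neither agent. The LPS group was exposed for 4 h to 100 ng/ml lipopolysaccharide, a bacterial wall component sensed by Tlr4. The IL-4 group was exposed for 24 h to 20 ng/ml interleukin 4, the type 2 cytokine that signals through Stat6. The group IL-4 then LPS had both, the IL-4 first for 24 h at 20 ng/ml and, once it was washed out, the LPS for 4 h at 100 ng/ml. Each group held 2 libraries, numbered 1 and 3. Strain, age and genotype are not given in the sources used here, and neither is whether a library came from 1 animal or a pool.

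TRIM proteins share an N-terminal RING finger, 1 or more B-box zinc fingers and a coiled coil, and most of them use the RING finger to transfer ubiquitin or ubiquitin-like proteins to other proteins. The C-terminal part differs between members and sets what each one binds. The largest group carries a PRY-SPRY domain and includes the restriction factor TRIM5 of primates and its rodent relatives, while other members end in NHL repeats, a PHD finger with a bromodomain, a microtubule-binding COS box or an ARF-like domain. A few members, among them Trim14, Trim16, Trim29 and Trim44, have no RING finger, so the name ubiquitin ligase does not hold for every gene of the set. In macrophages the family is known for its part in antiviral sensing, in the control of NF-kB signalling and in the interferon response, where several members are themselves induced.

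Libraries held 7924932 to 9431852 counts. Macrophage markers (8 of 8 listed, Lyz2 and Csf1r among them) were read in every library and summed to 15230 to 30220 CPM, the usual count unit relative to library totals, here scaled by TMM (trimmed mean of M-values). Markers of lymphocytes, erythroid cells and mast cells, basophils and eosinophils summed to at most 0.415 CPM in any library, and those of neutrophils to 0.865 to 7.46 CPM. The 6 dendritic cell markers summed to 0.779 to 1.48 CPM in the 4 libraries without LPS and to 7.32 to 13.6 CPM in the 4 with it, and 2 of the 3 that could be tested rose with LPS. The 6 stromal markers summed to 4.15 to 5.71 CPM without LPS and to 17.5 to 46.4 CPM with it, and 1 of 4 tested, Pdgfrb, rose. Over all tested genes 21.8% rose with LPS against control. The sums of both lists were thus higher in the libraries with LPS, and their part in the Trim results was not tested. In such bulk libraries, a change in the number of cells and a change in RNA per cell cannot be told apart.

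Reads from the 45 members summed to 1483 ± 52.3 CPM in control cells, 4736 ± 28.3 CPM after LPS, 1477 ± 82.0 CPM after IL-4 and 4415 ± 11.3 CPM after IL-4 then LPS (mean ± SD, n = 2 in each group). Much of the gain came from 10 neighbouring PRY-SPRY genes on chromosome 7, the mouse counterpart of the TRIM5 gene cluster. They gave 13.6 ± 2.76% of the family's CPM in control cells and 45.8 ± 2.12% after LPS, 10.5 ± 2.32% after IL-4 and 43.8 ± 1.34% after IL-4 then LPS. The other 16 members of the PRY-SPRY type went from 696.6 ± 7.21 to 1884 ± 43.1 CPM with LPS, while the 4 PHD-bromodomain members summed to 190.2 ± 13.1 CPM in control and 204.8 ± 28.4 CPM after LPS.

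**Figure D1:**
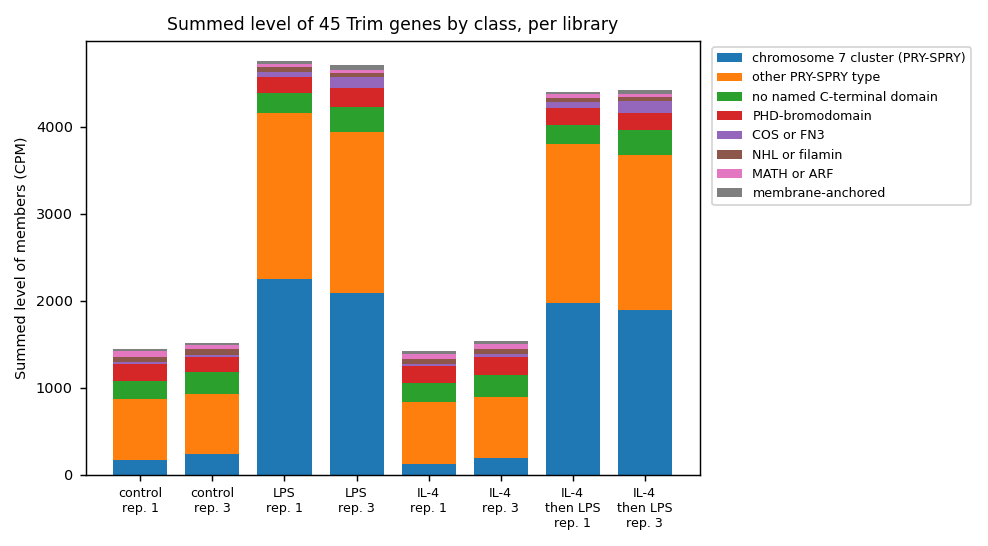
Summed level of the 45 Trim genes in each of the 8 libraries, in CPM on a linear axis from 0, with 1 stacked bar per library and 1 colour per class of C-terminal domain. The 4 libraries with LPS reach 4407 to 4756 CPM against 1419 to 1535 CPM in the 4 without, and the chromosome 7 cluster is the lowest segment of each bar.

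Compared per kilobase of gene model, Trim25 was the most abundant member of control cells, at 42.6 ± 6.49 CPM per kb, followed by Trim28 (30.5 ± 0.267), Trim8 (30.2 ± 5.78), Trim35 (30.1 ± 1.23) and Trim30a (22.4 ± 6.13). The values of Trim28, Trim8 and Trim35 lay within their spread of one another. After LPS the order on the same scale was Trim30a (256 ± 0.458 CPM per kb), Trim30c (183 ± 56.2), Trim25 (129 ± 12.8), Trim21 (118 ± 2.33) and Trim30d (107 ± 0.468). Trim30c stood at rank 34 of 45 in control cells and at rank 2 after LPS, with a wide spread between its 2 LPS libraries.

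LPS was first set against control to ask how resting macrophages change these genes within hours of a bacterial signal. The filter on low counts kept 41 of the 45 members, and 4 (Trim9, Trim17, Trim34b and Trim66) had too few reads to test. Of the 41, 14 rose, 10 fell and 17 did not pass an adjusted p of 0.05 in edgeR (quasi-likelihood F-test, p-values adjusted over 12234 genes by Benjamini and Hochberg). Among all tested genes 21.8% rose and 18.6% fell, against 34.1% and 24.4% of the tested members. The members' median log2 fold change was -0.03, beside -0.01 over all genes, with members on both sides. In 14 of the 41 (34.1%) all 4 libraries with LPS lay above all 4 without it, as they did in 26.0% of all tested genes, and in 13 (31.7%) all 4 lay below, as in 25.6% of all genes. The count of members that fell depends on the scaling: with library size alone 14 rose and 21 fell, and with upper-quartile factors 14 rose and 16 fell. Of all 12234 tested genes 1547 rose and 5745 fell with library size alone, and 2044 rose and 3542 fell with upper-quartile factors. Those scalings move the middle of all tested genes to a log2 fold change of -0.61 and -0.28.

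The 10 cluster genes lie within 289.1 kb at chr7:104218793-104507849 (mm10), and every protein-coding gene of that span is a member. Trim34a, Trim12a, Trim12c, Trim30a, Trim30b, Trim30c and Trim30d rose, 7 of 9 tested. Trim5 and Trim6 did not pass the test, and Trim34b was too low to test. None of the 9 fell.

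Trim30c (chr7:104382065-104400837) had the largest change of the family. It was read at 0.606 and 2.57 CPM in the control libraries, 382 and 246 after LPS, 0.178 and 2.18 after IL-4 and 387 and 253 after IL-4 then LPS. Its log2 fold change for LPS against control was 7.65 ± 0.77 (adjusted p = 0.000179). The reads went from 33 over both control libraries to 4507 over both LPS libraries, and no library with LPS came near one without. Replicate 3 stood above replicate 1 where LPS was absent and below it where LPS was present. Trim30b (chr7:104355382-104369884) also rose, with 0.519 and 0.297 CPM in the control libraries, 54.3 and 27.4 after LPS, 0.625 and 0.272 after IL-4 and 32.8 and 19.7 after IL-4 then LPS. Its log2 fold change was 6.58 ± 0.56 (adjusted p = 8.41e-05), on 9 reads over the control libraries and 586 over the LPS libraries.

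Trim30a, known to restrain Toll-like receptor signalling to NF-kB by promoting loss of the adaptors Tab2 and Tab3, was already well expressed at rest. It was read at 74.2 and 109.8 CPM in the control libraries, 1054 and 1051 after LPS, 51.3 and 84.0 after IL-4 and 900.5 and 971 after IL-4 then LPS. Every library with LPS lay far above every library without, and the log2 fold change was 3.52 ± 0.29 (adjusted p = 6.74e-05). Trim30d, its neighbour, was read at 19.6 and 28.5 CPM in the control libraries, 404 and 401 after LPS, 10.2 and 16.9 after IL-4 and 346 and 339 after IL-4 then LPS, with a log2 fold change of 4.07 ± 0.28 (adjusted p = 3.08e-05). In these 2 genes the groups with and without LPS were widely separated and the replicates of the LPS group nearly coincided.

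Trim12a, Trim12c and Trim34a, close relatives of TRIM5, rose less. Trim12a was read at 11.3 and 15.3 CPM in the control libraries, 81.8 and 95.5 after LPS, 9.37 and 14.1 after IL-4 and 81.0 and 87.5 after IL-4 then LPS, a log2 fold change of 2.73 ± 0.23 (adjusted p = 7.72e-05). Trim12c was read at 39.2 and 53.6 CPM in the control libraries, 169.7 and 168 after LPS, 33.7 and 46.6 after IL-4 and 142 and 151 after IL-4 then LPS, a log2 fold change of 1.86 ± 0.20 (adjusted p = 0.000269). Trim34a was read at 11.1 and 15.1 CPM in the control libraries, 90.3 and 82.8 after LPS, 8.93 and 12.2 after IL-4 and 69.3 and 63.6 after IL-4 then LPS, a log2 fold change of 2.72 ± 0.21 (adjusted p = 4.9e-05). All 3 genes had every LPS library above every library without LPS.

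The remaining cluster genes stayed low. Trim5 was read at 10.1 and 9.79 CPM in the control libraries, 7.84 and 8.43 after LPS, 9.37 and 7.8 after IL-4 and 10.9 and 7.53 after IL-4 then LPS. Both libraries of the LPS group lay below both control libraries, but the 4 libraries with LPS overlapped the 4 without. The log2 fold change of Trim5 for LPS against control was -0.29 ± 0.25 (adjusted p = 0.377). Trim6, a ligase that forms unanchored ubiquitin chains in interferon signalling, ran from 1.07 to 4.81 CPM over the 8 libraries, with a log2 fold change of 0.78 ± 0.50 (adjusted p = 0.249). Trim34b had 31 of its 54 reads in 1 library, LPS replicate 3, and between 0 and 9 reads in each of the others. Genes that rose and genes that did not pass the test thus lay side by side, with Trim5 between Trim34a and Trim12a.

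**Figure D2:**
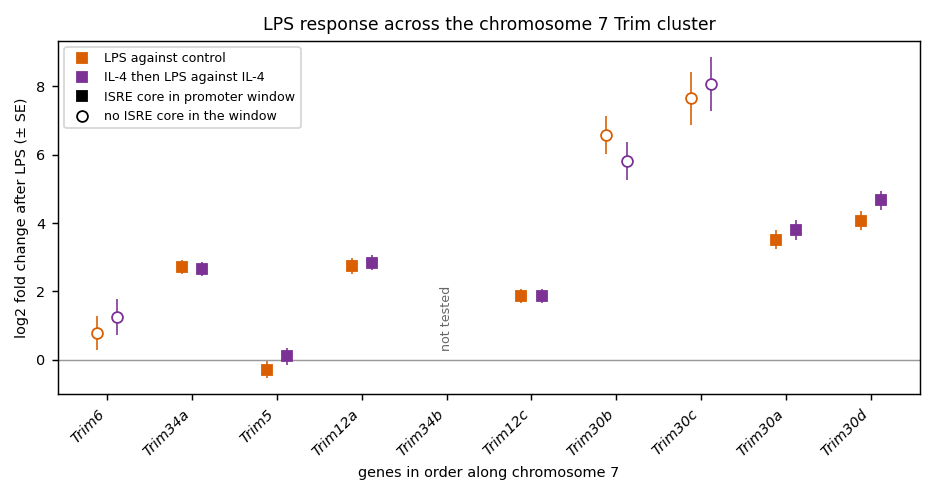
Log2 fold change after LPS for the 10 Trim genes of the chromosome 7 cluster, in genome order, without prior IL-4 (orange) and after IL-4 (purple), with SE bars and filled squares where the promoter window holds an ISRE core. Trim30b and Trim30c stand highest at 6.58 and 7.65 without prior IL-4 and carry no core in their windows, and Trim5 carries one and lies near 0.

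How far these genes can be told apart by short reads was checked in the GENCODE M21 transcripts, since how reads with several matches were counted is not stated in the sources at hand. Of all 50-base windows of Trim30c 0.66% also occur in another gene, and the share was 1.48% for Trim30b, 5.98% for Trim30a and 7.49% for Trim30d. It was 10.5% for Trim12a, 33.7% for Trim12c, 36.6% for Trim5 and 59.7% for Trim34a, with 39.8% of Trim34a windows found in Trim34b and 24.2% of Trim12c windows in Trim5. The counts of Trim34a, Trim34b, Trim5 and Trim12c are therefore less certain than those of the Trim30 genes.

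To show what the members share in sequence, RefSeq promoter windows (GRCm38.p6, 250 bases before to 50 after a transcript start) were searched for the core of the interferon-stimulated response element (ISRE), a site bound by Irf proteins in interferon responses. The core was taken as GAAA, any 2 bases, GAAA, on either strand. A window was found for 34 members. The core occurred in 9 of them (26.5%), against 3.99% of 27025 genes with a window and 4.15% of the 9131 tested genes among them. It occurred in 7 of the 12 members with a window that rose with LPS both without IL-4 and after it, called the 2 arms here (58.3%) and in 2 of the 19 other tested members, Trim5 and, in 1 of its 5 windows, Trim2. A match describes the letters only and does not show binding. The following stretches hold the matches of the members that rose and of Trim5, each written 5′ to 3′ in the direction of the transcript with the core in capitals (TTTC, any 2 bases, TTTC where the match is on the other strand). They are shown because the same letters recur along the cluster.
Trim21, chr7:102565439-102565484: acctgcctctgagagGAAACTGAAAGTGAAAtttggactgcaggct
Trim34a, chr7:104244452-104244491: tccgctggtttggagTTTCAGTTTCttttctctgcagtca
Trim5, chr7:104288131-104288170: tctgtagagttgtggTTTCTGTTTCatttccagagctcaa
Trim12a, chr7:104315461-104315500: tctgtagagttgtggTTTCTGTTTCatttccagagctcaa
Trim12c, chr7:104353354-104353393: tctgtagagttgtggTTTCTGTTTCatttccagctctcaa
Trim30a, chr7:104465205-104465244: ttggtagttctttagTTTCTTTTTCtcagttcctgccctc
Trim30a, second window, chr7:104446099-104446138: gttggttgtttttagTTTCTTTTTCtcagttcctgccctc
Trim30d, chr7:104507866-104507905: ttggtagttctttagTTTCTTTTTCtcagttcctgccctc
Trim26, chr17:36836971-36837016: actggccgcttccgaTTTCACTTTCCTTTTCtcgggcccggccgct
Trim30c, chr7:104400891-104400930: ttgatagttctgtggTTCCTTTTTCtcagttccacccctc

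Trim30a held the core in both of its windows. In the first window it and Trim30d carried the same 40 bases around the core, and so did Trim5 and Trim12a. The core sat 36 bases before the RefSeq start in the first window of Trim30a, 3 after it in the second, 41 before it in Trim30d, 49 before it in Trim5 and 11 after it in Trim12a. Trim5 and Trim12a thus shared a stretch, and Trim12a rose while Trim5 did not pass the test. Trim21 and Trim26 each held 2 overlapping cores. In Trim30c, shown last with the aligned core positions in capitals, the best ungapped match to the first Trim30a stretch had 34 of 40 bases equal and 1 difference within the core, T18C, with positions counted from 1 at the 5′ end of the stretch and the Trim30a base first. That change removes the match, so Trim30c counts among the members without a core although its stretch is otherwise alike. The RefSeq window of Trim30b lies inside the gene as the table gives it, and its best match to the stretch had 17 of 40 bases equal, so the start upstream of that gene was not searched. This comparison with Trim30a was chosen after the values were seen.

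A site type bound by Stat6, the factor activated by IL-4, was searched as TTC, any 4 bases, GAA. It was found in 4 of 34 members (11.8%), Trim39, Trim46, Trim66 and Trim68, and in 0 of the 12 that rose, against 8.01% of all genes. A gamma-activated site type, TTC, any 3 bases, GAA, was found in 3 members (8.82%), Trim30c, Trim45 and Trim46, against 9.55% of all genes. Among the tested genes with a window the shares were 6.69% for the Stat6 type and 8.29% for the gamma-activated type. The members' share lay near both references for the second type and above both for the first, on 4 members. No member's window held matches of more than 1 of the 3 site types. Trim25, Trim56 and Trim13 rose and had none of the 3 in their windows.

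Outside the cluster 7 of 32 tested members rose with LPS (21.9%), a share near the 21.8% of all tested genes. Trim21 (chr7:102557921-102565486), a cytosolic antibody receptor that marks antibody-coated particles for destruction, lies on chromosome 7 as well, apart from the cluster. It was read at 24.0 and 32.2 CPM in the control libraries, 430.3 and 443 after LPS, 18.8 and 27.7 after IL-4 and 405 and 372 after IL-4 then LPS. The lowest library with LPS, at 372 CPM, lay far above the highest without, at 32.2 CPM, and the log2 fold change was 3.96 ± 0.24 (adjusted p = 1.94e-05). Trim25, a ligase for the RNA sensor RIG-I and for the modifier ISG15, was read at 272 and 219 CPM in the control libraries, 793 and 688 after LPS, 245 and 210.1 after IL-4 and 792 and 700.0 after IL-4 then LPS. Every library with LPS lay above every library without, and the log2 fold change was 1.59 ± 0.18 (adjusted p = 0.000291). Trim26, which acts on interferon induction, was read at 38.9 and 50.3 CPM in the control libraries, 288 and 264 after LPS, 41.7 and 40.2 after IL-4 and 247 and 240.0 after IL-4 then LPS, a log2 fold change of 2.63 ± 0.16 (adjusted p = 2.04e-05).

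Trim14, an adaptor of mitochondrial antiviral signalling without a RING finger, rose by a log2 fold change of 2.03 ± 0.28 (adjusted p = 0.000947), from 29.3 and 41.3 CPM to 126 and 162 CPM. It overlaps Nans on the other strand, and 29.5% of its 50-base windows also occur there, and the reads of the 2 genes can be told apart there only if the counting used strand, which no source used here states. Trim56, which acts on the STING pathway of DNA sensing, rose by 1.28 ± 0.18 (adjusted p = 0.00105), from 52.5 and 68.6 CPM to 133 and 162 CPM. Both genes had every LPS library above every library without LPS.

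Trim13, a ligase of the endoplasmic reticulum membrane, and Trim36, a microtubule-associated ligase of the COS-box group, rose with a difference between replicates in every group. Of the 50-base windows of Trim13, 14.2% also occur in another gene model, Gm9359. Trim13 was read at 6.49 and 12.9 CPM in the control libraries, 22.5 and 54.3 after LPS, 6.7 and 12.6 after IL-4 and 23.5 and 35.5 after IL-4 then LPS, and Trim36 at 15.6 and 20.1 CPM in the control libraries, 50.4 and 116 after LPS, 23.1 and 33.6 after IL-4 and 68.4 and 129 after IL-4 then LPS. Replicate 3 lay above replicate 1 in all 4 groups of both genes, and every LPS library still lay above every library without LPS. Their log2 fold changes were 1.996 ± 0.52 (adjusted p = 0.0173) and 2.23 ± 0.45 (adjusted p = 0.00591). Without control replicate 1 the log2 fold change of Trim13 was 1.52 (adjusted p = 0.112) and that of Trim36 was 1.997 (adjusted p = 0.0512). Without LPS replicate 3 that of Trim13 was 1.22 (adjusted p = 0.114). Replicate 1 libraries held 2936 to 4465 Xist reads and no read of 4 Y-linked genes, and replicate 3 libraries the reverse, so the replicates differ in the sex of the cells. The part of sex in the spread cannot be told apart from other differences between replicates. With the replicate number as a block in the fit, the SE was 0.18 for Trim13 and 0.19 for Trim36.

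**Figure D3:**
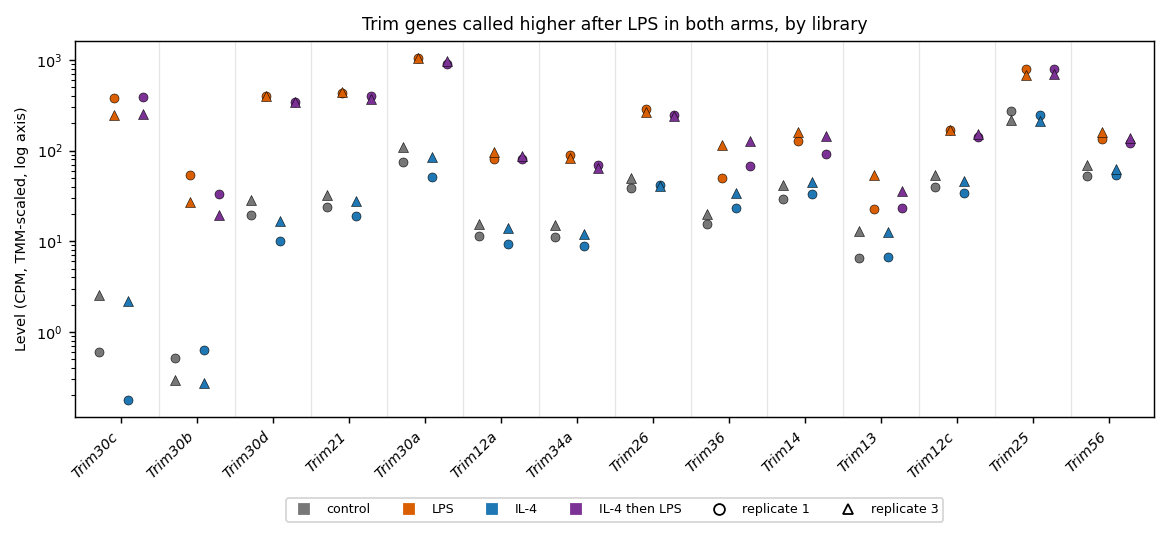
CPM of the 14 Trim genes that rose after LPS in both arms, on a log axis, with 1 point per library (circle, replicate 1; triangle, replicate 3) and 1 colour per group, ordered by the log2 fold change of LPS against control. In each gene the 4 points with LPS lie above the 4 without, and the gap is widest for Trim30c, with 0.1785 to 2.57 CPM without LPS and 246 to 387 CPM with it.

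Of the 10 members that fell, 4 were of the PRY-SPRY type outside the cluster (Trim16, Trim47, Trim62 and Trim65), 2 of the NHL or filamin type (Trim2 and Trim45), and Trim37, Trim24, Trim59 and Trim8 came from 1 class each. None lay in the chromosome 7 cluster. Trim65, a ligase of the RNA sensor MDA5 (gene Ifih1), fell most. It was read at 22.2 and 19.6 CPM in the control libraries, 2.38 and 1.52 after LPS, 20.2 and 18.6 after IL-4 and 1.31 and 0.649 after IL-4 then LPS, with a log2 fold change of -3.42 ± 0.31 (adjusted p = 0.000106). Trim47, its neighbour, was read at 20.2 and 26.7 CPM in the control libraries, 2.8 and 3.59 after LPS, 27.3 and 31.5 after IL-4 and 5.25 and 4.28 after IL-4 then LPS, with a log2 fold change of -2.87 ± 0.25 (adjusted p = 8.86e-05). The 2 genes overlap on the same strand of chromosome 11, at chr11:116105752-116127210 and chr11:116121846-116131128, and 6.58% of the 50-base windows of Trim47 also occur in Trim65. Both had every LPS library far below every library without LPS.

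Trim16, a galectin-binding member of the response to damaged membranes, was read at 23.2 and 23.6 CPM in the control libraries, 4.48 and 1.8 after LPS, 28.0 and 23.8 after IL-4 and 9.48 and 2.73 after IL-4 then LPS, with a log2 fold change of -2.90 ± 0.55 (adjusted p = 0.00447). Trim2, an NHL-type ligase of neurofilament light chain, went from 5.54 and 3.96 CPM to 1.12 and 0.691 CPM, a log2 fold change of -2.38 ± 0.46 (adjusted p = 0.00485). Trim45, of the filamin type, went from 3.46 and 3.17 CPM to 0.420 and 0.829 CPM, a log2 fold change of -2.38 ± 0.50 (adjusted p = 0.00696). Trim2 and Trim45 rest on few reads, 13 and 9 over the 2 LPS libraries. Trim59, a membrane-anchored member, fell by 1.44 ± 0.31 on the log2 scale (adjusted p = 0.008), and Trim37, a ligase tied to peroxisomes and centrosomes, by 1.24 ± 0.23 (adjusted p = 0.00399).

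Trim62, which acts on the adaptor Card9, had a log2 fold change of -1.06 ± 0.28 (adjusted p = 0.0182), Trim24 one of -1.05 ± 0.36 (adjusted p = 0.0486) and Trim8 one of -0.81 ± 0.26 (adjusted p = 0.041). These 3 calls lie near the threshold. The adjusted p of Trim62 was 0.0982 and that of Trim24 0.203 without control replicate 1, and they were 0.103 and 0.212 without LPS replicate 3, and Trim24 also missed the threshold on leaving out any 1 library of the other 2 groups (0.0571 to 0.0642) and in a fit of the control and LPS groups alone (0.0921). Trim8, which acts on the kinase Tak1 and on Socs1, was read at 84.3 and 111 CPM in the control libraries, 46.2 and 64.9 after LPS, 104 and 123 after IL-4 and 55.4 and 87.7 after IL-4 then LPS. Its groups with and without LPS overlapped, and its adjusted p was 0.171 without control replicate 3 and 0.185 without LPS replicate 1.

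**Figure D4:**
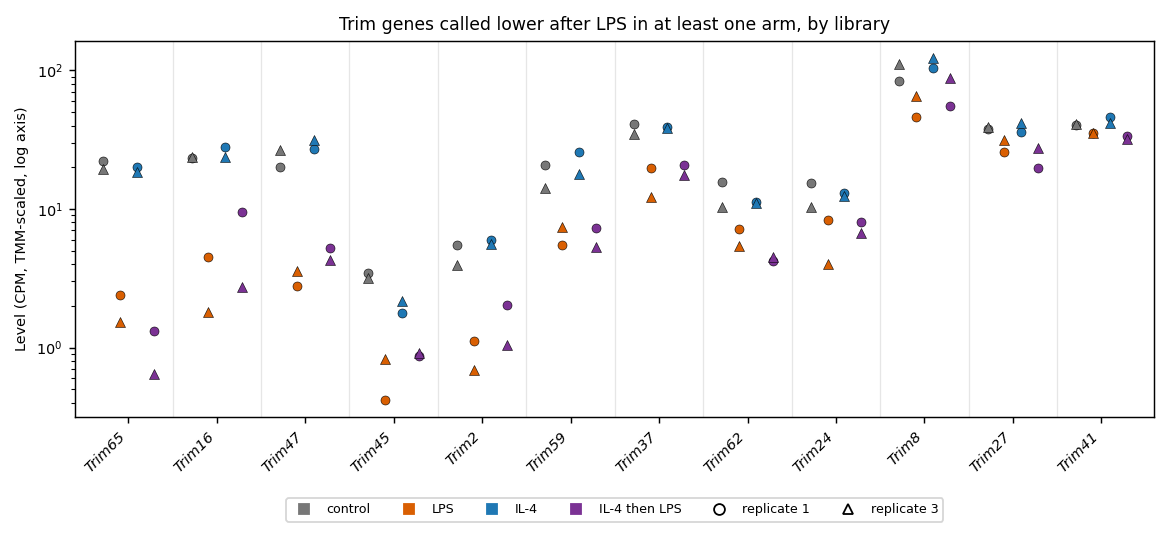
CPM of the 12 Trim genes that fell after LPS in at least 1 arm, on a log axis, with 1 point per library (circle, replicate 1; triangle, replicate 3) and 1 colour per group, ordered by the log2 fold change of LPS against control. Trim65, Trim16 and Trim47 show the widest gaps, with 0.649 to 9.48 CPM in the LPS libraries and 18.6 to 31.5 CPM in the others, and Trim8 shows an overlap.

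Among the PHD-bromodomain members, the transcriptional regulators of the family, Trim24 fell as given above, and Trim28 and Trim33 did not pass the test. Trim28, the corepressor recruited by KRAB zinc finger proteins, was read at 128 and 126 CPM in the control libraries, 138 and 178 after LPS, 131 and 142 after IL-4 and 145 and 159 after IL-4 then LPS, with a log2 fold change of 0.32 ± 0.15 (adjusted p = 0.131). Trim33, which acts in TGF-beta signalling, was read at 56.2 and 44.7 CPM in the control libraries, 37.9 and 43.1 after LPS, 49.5 and 43.0 after IL-4 and 35.9 and 37.4 after IL-4 then LPS, with a log2 fold change of -0.32 ± 0.16 (adjusted p = 0.152). The sign for Trim28 turned under scaling by library size alone, to -0.29. With the replicate number as a block in edgeR, Trim28 was called as risen, at 0.31 (adjusted p = 0.0433). After IL-4, with library size alone, it was called as fallen, at -0.37 (adjusted p = 0.0479). Its direction thus depends on the fit. Of 8 partners of Trim28 in gene silencing, 4 fell (Setdb1, Cbx3, Cbx5 and Chd3) and 1 rose (Hdac1). Over all tested genes 18.6% fell and 21.8% rose. Cbx3 and Cbx5, chromodomain proteins of heterochromatin, had log2 fold changes of -2.004 ± 0.44 (adjusted p = 0.00817) and -1.54 ± 0.36 (adjusted p = 0.0112), and the histone deacetylase Hdac1 one of 1.22 ± 0.15 (adjusted p = 0.000451).

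The other members that did not pass the test without IL-4 included Trim27 (-0.42 ± 0.19 on the log2 scale), a nuclear PRY-SPRY ligase first known as the RET finger protein, and Trim32 (-0.17 ± 0.18), an NHL-type ligase of muscle. Trim3, Trim23, Trim35 and Trim39 had log2 fold changes between -0.03 and 0.30, and with library size alone the signs of Trim3, Trim23 and Trim35 turned. Trim11, Trim41, Trim44, Trim46 and Trim68 lay between -0.60 and 0.12, and that of Trim46 turned likewise. Trim7, a partner of glycogenin, and Trim29 had large estimates, -1.94 ± 1.05 and -2.18 ± 0.83, on 6 and 4 reads over the 2 LPS libraries, and their adjusted p values were 0.174 and 0.0706. With library size alone Trim29 passed, at -2.77 (adjusted p = 0.0227). So did Trim3, Trim11, Trim23, Trim27, Trim32, Trim41, Trim44 and Trim68, and Trim5 and Trim33 given above. All of them fell under that scaling (adjusted p = 0.0008 to 0.0353).

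The other untested members are given by their reads. Trim17 held 3 reads over the control libraries, 6 after LPS, 4 after IL-4 and 17 after IL-4 then LPS. Trim66 held 6, 1, 6 and 7 reads in the same order, and Trim9 had 8 of its 10 reads in control replicate 1. None of the 3 allows a statement on its response.

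The LPS response was measured a second time in cells that had met IL-4, with the IL-4 group as reference, and this comparison shares no library with the first. Of 41 tested members 14 rose, 9 fell and 18 did not pass, against 20.7% and 18.6% of all tested genes. The members' median log2 fold change was -0.12, beside -0.04 over all genes. With library size alone 13 rose and 19 fell, and with upper-quartile factors 13 rose and 14 fell. Of all 12234 tested genes 1546 rose and 5321 fell with the first scaling, and 1924 rose and 3426 fell with the second. The 14 members that rose were the same 14 genes as without IL-4, 7 of them outside the cluster (21.9% of the 32 tested there). Of those that fell, 7 fell in both arms (Trim2, Trim16, Trim37, Trim47, Trim59, Trim62 and Trim65). Trim8, Trim24 and Trim45 passed without IL-4 and missed the threshold after it, and Trim27 and Trim41 passed after it and missed the threshold without, and the test of the difference between arms, given below, passed for none of these 5. The remaining 15 passed in neither arm.

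The estimates of both arms ran close together. Trim30c rose by 8.08 ± 0.79 (adjusted p = 0.000163) after IL-4, Trim30b by 5.82 ± 0.56 (adjusted p = 0.00015), Trim30d by 4.66 ± 0.29 (adjusted p = 2.31e-05) and Trim30a by 3.79 ± 0.29 (adjusted p = 5.29e-05), all on the log2 scale. Trim21 rose by 4.06 ± 0.24 (adjusted p = 1.97e-05), and Trim65 had a log2 fold change of -4.31 ± 0.34 (adjusted p = 6e-05). Across the 41 members the 2 sets of log2 fold changes correlated with Pearson's r = 0.983 and Spearman's rho = 0.976, and across all 12234 genes with 0.927 and 0.91. These correlations are across genes of the same 8 libraries and are given as a description.

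For 6 of the members named by rule the call after IL-4 missed the threshold when 1 library was left out, with the sign unchanged. Trim13 (log2 fold change 1.61 ± 0.51, adjusted p = 0.0394) had 1.23 without IL-4 replicate 1 (adjusted p = 0.189), 1.28 without replicate 3 of IL-4 then LPS (adjusted p = 0.179) and 1.88 without replicate 1 of that group (adjusted p = 0.0555). With library size alone it had 1.096 (adjusted p = 0.086). Trim36 (log2 fold change 1.80 ± 0.44, adjusted p = 0.0141) had 1.55 without IL-4 replicate 1 (adjusted p = 0.0878) and 1.27 without replicate 3 of IL-4 then LPS (adjusted p = 0.0888). Trim16 (log2 fold change -2.10 ± 0.51, adjusted p = 0.0138) had -1.98 without IL-4 replicate 1 (adjusted p = 0.0528). Without replicate 3 of IL-4 then LPS, Trim2 (log2 fold change -1.92 ± 0.43, adjusted p = 0.00933) had -1.499 (adjusted p = 0.0605) and Trim37 (log2 fold change -1.01 ± 0.23, adjusted p = 0.01) had -0.898 (adjusted p = 0.0663). Trim27 (log2 fold change -0.72 ± 0.20, adjusted p = 0.0222) had -0.577 without IL-4 replicate 3 (adjusted p = 0.132) and -0.504 without replicate 1 of IL-4 then LPS (adjusted p = 0.118). Trim41 was named here after its values were seen. It had a log2 fold change of -0.44 ± 0.13 (adjusted p = 0.0273) and overlaps Rack1 on the other strand, a gene with 43628 reads beside its own 2848. Over its alternatives the adjusted p of Trim41 ran from 0.0012 to 0.1705.

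**Figure D5:**
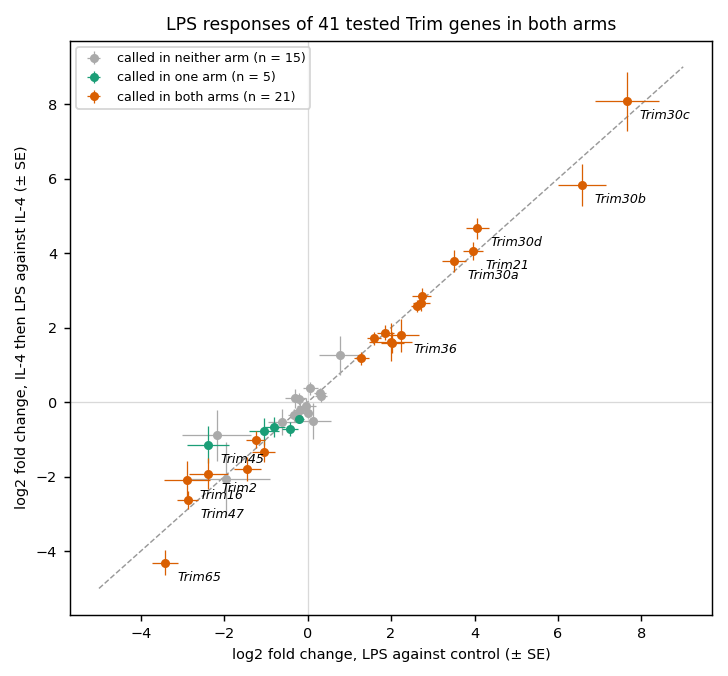
Log2 fold change after LPS without prior IL-4 (horizontal axis) and after IL-4 (vertical axis) for the 41 tested Trim genes, with SE bars, coloured by the number of arms in which the gene passed the test, and a dashed line of equal change. The points run along the line from Trim65 at -3.42 and -4.31 to Trim30c at 7.65 and 8.08.

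The difference between the 2 LPS responses was tested as an interaction. None of the 41 members passed, the smallest adjusted p was 1, and 0 members had an unadjusted p under 0.05. Over all tested genes 0.0% were called in either direction, and 2.63% had an unadjusted p under 0.05. The members' differences ran from -0.89 to 1.28 on the log2 scale. Trim65 had an estimate of -0.89 ± 0.48 and Trim30d one of 0.60 ± 0.35. The absence of a call does not show that the responses were equal, since 2 libraries per group leave wide errors for genes with few reads.

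The comparison of IL-4 with control asked what IL-4 alone did. In edgeR's test 0 of 41 members passed, beside 0.0572% of all genes that rose and 0.00817% that fell. DESeq2 also called 0 members. The smallest adjusted p was 0.513, for Trim30d, which was the 1 member with an unadjusted p under 0.05, as 7.29% of all genes had. Trim30d had 19.6 and 28.5 CPM in control and 10.2 and 16.9 CPM after IL-4, a log2 fold change of -0.83 ± 0.26. Both IL-4 libraries lay below both control libraries in 7 members (17.1%, beside 19.2% of all genes) and above them in 7 (17.1%, beside 19.4%), shares near those of all genes. In the cluster, 8 of 9 tested members had a log2 fold change below 0, all but Trim30b. Their median was -0.31, beside -0.000367 over all genes, and the share of all genes below 0 was not counted. Both IL-4 libraries lay below both control libraries in 3 of the 9, Trim5, Trim6 and Trim30d, and the groups overlapped in the others. Some cluster genes share 50-base windows, so the 9 signs are not separate observations, and none of the 9 passed the test. The sign was not stable for each of the 9 cluster genes. Over the alternatives the estimates ran from -0.55 to 0.06 for Trim12a, -0.50 to 0.02 for Trim12c and -3.06 to 0.92 for Trim30c.

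The comparison of IL-4 then LPS with LPS alone asked whether earlier IL-4 left a trace in the stimulated cells. Again 0 of 41 members passed in edgeR and 0 in DESeq2, beside 0.049% of all genes that rose and 0.0163% that fell. The smallest adjusted p was 0.563, shared by Trim46 and Trim65, the 2 members with an unadjusted p under 0.05, as 8.5% of all genes had. Trim65 had 2.38 and 1.52 CPM after LPS and 1.31 and 0.649 CPM after IL-4 then LPS, a log2 fold change of -1.002 ± 0.41 on 28 and 14 reads. Trim46, a microtubule organiser of the axon initial segment in neurons, had 2.1 and 2.9 CPM after LPS and 1.31 and 0.908 CPM after IL-4 then LPS, a log2 fold change of -1.17 ± 0.48, and it overlaps Krtcap2 on the other strand. In 13 members (31.7%, beside 19.8% of all genes) both libraries of IL-4 then LPS lay below both LPS libraries, and in 4 (9.76%, beside 16.6%) both lay above. The 13 were Trim12c, Trim21, Trim26, Trim30a, Trim30d and Trim34a, which rose with LPS, and Trim3, Trim32, Trim33, Trim41, Trim46, Trim62 and Trim65, which did not. In Trim12a, Trim13, Trim14, Trim25, Trim30b, Trim30c, Trim36 and Trim56, which also rose with LPS, the 2 groups overlapped.

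The differences of the 6 genes that lay lower here and had risen with LPS did not pass the test. Trim34a had a log2 fold change of -0.38 ± 0.19, Trim30d of -0.23 ± 0.24, Trim12c of -0.21 ± 0.19, Trim26 of -0.18 ± 0.15, Trim30a of -0.17 ± 0.26 and Trim21 of -0.17 ± 0.21, with adjusted p values from 0.643 to 0.904. In 2 members, Trim41 and Trim45 (4.88%, beside 2.85% of all genes), the libraries with IL-4 lay on opposite sides at rest and after LPS. Across the 41 members, the IL-4 effects at rest and after LPS, which share no library, correlated with Pearson's r = 0.403 and Spearman's rho = 0.438, and across all genes with 0.415 and 0.38.

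Genes that act with the Trim proteins were taken from lists, to set the members beside their pathways. Over all tested genes 21.8% rose with LPS against control and 18.6% fell. Of 4 TRIM proteins that carry other names 3 could be tested, and all 3 rose with LPS: Pml, the organiser of nuclear bodies, from 45.7 ± 2.22 to 366 ± 12.5 CPM, Mefv, the pyrin protein, from 7.0 ± 3.53 to 70.1 ± 22.6 CPM, and Mid1, a microtubule-associated ligase, from 2.28 ± 1.55 to 25.5 ± 13.2 CPM (mean ± SD, n = 2). Of 11 genes of interferon signalling 10 rose, all but Irf3. Stat2 and Irf9, transcription factors of the interferon response, had log2 fold changes of 3.29 ± 0.23 and 1.71 ± 0.15. Irf7 had the second largest change of the list, 4.57 ± 0.31, after Ifnb1, the gene of interferon beta, which went from 2 reads over the control libraries to 55 over the LPS libraries.

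Of 13 genes of nucleic acid and Toll-like receptor sensing 7 rose and 1, the mitochondrial adaptor Mavs, fell (-1.14 ± 0.14 on the log2 scale). Ifih1, the sensor on which Trim65 acts, rose by 5.48 ± 0.35 while Trim65 fell by 3.42 ± 0.31, and Ddx58, the gene of RIG-I on which Trim25 acts, rose by 3.70 ± 0.38 beside Trim25 at 1.59 ± 0.18. Tab2, on which Trim30a acts, rose by 1.73 ± 0.14 as Trim30a rose by 3.52 ± 0.29, in transcript levels. Of 13 tested genes of the ubiquitin and ISG15 systems 12 rose, among them Isg15 (5.72 ± 0.68), its remover Usp18 (5.46 ± 0.58), its activating enzyme Uba7 (2.70 ± 0.22) and its conjugating enzyme Ube2l6 (2.47 ± 0.26). After IL-4 the counts of these lists for LPS were the same, 3 of 3, 10 of 11, 7 and 1 of 13, and 12 of 13. Over all tested genes 20.7% rose and 18.6% fell there. In the 2 IL-4 comparisons and the interaction 0 genes of any of the lists passed. At most 0.0572% of all tested genes were called in either direction of those comparisons.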

How the data were processed

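Bulk RNA sequencing was made from 8 libraries in 4 groups of 2. The deposited table holds raw read counts per gene, made by the authors with HISAT2, HTSeq and StringTie on mm10, per the submitters' processing notes. Gene lengths in base pairs are also deposited by the authors. Strandedness, read length and the handling of reads with several matches are not given in the sources used here. The table's 6 further count columns were not used.

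Genes were kept by filterByExpr (12234 genes) and tested with edgeR 4.0.16 (R 4.3.3): quasi-likelihood test, TMM scaling (factors 0.786 to 1.25), 1 mean per group, all 8 libraries (4 residual degrees of freedom), Benjamini-Hochberg adjustment over all tested genes, threshold 0.05. Each SE was obtained as the size of the log2 fold change over the root of the F statistic. Levels are TMM-scaled CPM, with SD over 2 libraries. DESeq2 1.42.0, other scalings, no filter, a replicate block and leaving out each library were alternatives. The test was checked on simulated data.

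The labels do not say whether the libraries came from separate animals, but the 2 of each group differ in the sex of the cells. The p-values measure the spread between these libraries, which includes that difference. Members with a called log2 fold change of at least 1 and a list of family members were named. Members and gene lists were chosen with earlier results of these data known. Of the members, 43 have the same coordinates in GENCODE M21.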

Additional observations from a re-analysis of the deposited data

Results flagged for a closer look

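In 2 of 41 members (4.88%) the IL-4 libraries lay on one side at rest and on the other after LPS, with no overlap in either, as they did in 2.85% of the 12234 tested genes. Trim41 had a log2 fold change of 0.1159 for IL-4 against control, with both IL-4 libraries above both control libraries, and of -0.1163 for IL-4 then LPS against LPS, with both libraries below. Trim45 had -0.7395 at rest, with both IL-4 libraries below, and 0.5034 after LPS, with both above, on 9 reads over the LPS libraries and 13 over those of IL-4 then LPS. The difference was tested as the interaction in edgeR, and neither gene passed (adjusted p = 1 for both).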

How the results depend on the processing

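The counts of members that rose or fell with LPS were recomputed under each alternative. With library size alone 21 members fell with LPS in cells without IL-4 and 19 in cells after IL-4, and with upper-quartile factors 16 and 14, beside 10 and 9. Of all 12234 genes 5745 and 5321 fell with library size alone, and 3542 and 3426 with upper-quartile factors, beside 2279 and 2271. Those scalings moved the median log2 fold change of all tested genes to -0.61 and -0.56, and to -0.28 and -0.28, and the share of rising genes among all calls from 53.9% to 21.2% and 36.6% in the first comparison. With no filter on low counts 1 member rose (Trim36) and 1 fell (Trim30d) in IL-4 against control, and the cause was not tested. In that fit 198 of all 21068 genes rose and 162 fell, beside 7 and 1 of 12234 in the main fit. Each fit without 1 library left 1 group with 1 library, so its counts of calls are left out here. Of 690 alternative values of the named members' LPS calls, 664 stayed on their side of the threshold, 26 missed it and 0 changed sign. Of all 12234 genes the replicate block called 3453 that rose and 3121 that fell without IL-4, and 3182 and 3151 after IL-4. Among the members it gave 16 that rose, Trim28 and Trim35 among them, and 11 that fell without IL-4, and 14 and 13 after IL-4. In the IL-4 comparisons and the interaction it gave 0 members. Over all 12234 genes it called 183 that rose and 105 that fell in IL-4 against control. The block called 132 and 149 in IL-4 then LPS against LPS, and 0 and 1 in the interaction. With it Trim13 and Trim36 passed without IL-4 (adjusted p = 2.34e-05 and 1.75e-05), the 6 calls after IL-4 that missed the threshold without 1 library all passed (adjusted p = 4.79e-05 to 0.00189), Trim8 and Trim24 also passed after IL-4 (0.00111 and 0.026) and Trim27 also passed without it (0.0222). The labels do not tie same-numbered libraries to 1 animal, and with 2 pairs their deviations correlated by 0.343 to 0.524, and same-numbered libraries share the sex of the cells, but the number is not taken as a pairing. Depth limits statements on the 4 members that were not tested.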
